A study of Mus musculus with 3 samples.

Results

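The genes described here encode the heat shock proteins, their DNAJ co-chaperones and the chaperonins of MC3T3-E1 cells, a mouse preosteoblast line from calvaria. They were chosen by gene symbol from the deposited FPKM table, as every listed gene whose name begins with Hspa, Hspb, Hsp90, Hspd, Hspe, Hsph, Dnaja, Dnajb, Dnajc or Cct, with the endoplasmic reticulum chaperones Hspa5, Hsp90b1, Dnajb9, Dnajb11 and Dnajc3 left out. This gave 73 of the 15287 listed genes. The RNA-seq data came from 3 libraries of wild-type cells. The CTL library was from cells that received no special treatment, the Ti library from cells given titanium particles at 10 μg/cm2 for 24 h, and cells of the Ti+Se-Met library received these particles and 5 μM selenomethionine (Se-Met) over the same 24 h. The line is established, and the labels give no time for CTL. Each condition had 1 library, so that no difference could be set against the spread of replicates, and no test was made.

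Molecular chaperones bind unfolded or partly folded proteins and use ATP to help them reach their folded state. HSP70 proteins do so in a cycle in which DNAJ proteins, also called HSP40, deliver clients and speed up ATP hydrolysis, and in which nucleotide exchange factors such as the HSP110 proteins release ADP. HSP90 takes over clients such as kinases and steroid receptors, small HSPs hold unfolded proteins without ATP, and chaperonins enclose them in a barrel, either in mitochondria (Hspd1 with its lid Hspe1) or in the cytosol (the CCT complex, also called TRiC, which folds actin and tubulin). Under heat or oxidative stress the transcription factor HSF1 binds heat shock elements in the promoters of many of these genes. In osteoblasts, chaperones also serve the folding of secreted collagen.

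The 73 genes comprised 10 HSP70 genes, 3 HSP110 genes, 2 HSP90 genes, 7 small HSP genes, 2 mitochondrial chaperonin genes, 8 CCT genes, 39 DNAJ genes and 2 genes of associated proteins whose symbols fit the rule, Hspbp1 and Hspbap1. FPKM divides the fragments of a gene by its transcript length and by the library's size, so that levels can be compared between genes. A level of 1 FPKM or more in any library was reached by 61 of the 73 genes and by 11137 of all genes. The other 12 genes, among them Hspa1a, Hspa12a, Hspb7, Hspb9 and Cct6b, stayed below 1 FPKM in every library, and 6 members were at 0 in at least 1 library. A mean level of at least 100 FPKM was found for 14 members and one of 10 to 100 FPKM for 35.

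The number of reads per library was estimated from the size of the steps between low FPKM values, at 14050000 fragments (CTL), 14550000 fragments (Ti) and 10600000 fragments (Ti+Se-Met). The 95% intervals of a fold given below are exact conditional binomial intervals on the fragments estimated in this way. They hold the counting error alone, and so describe these libraries rather than the conditions. Where 3 values of a gene follow each other without names, they are of CTL, Ti and Ti+Se-Met, in this order. Of 9 listed osteoblast markers, Runx2, Col1a1, Col1a2 and Spp1 were above 10 FPKM in every library and Sp7, Ibsp and Bglap below 1 FPKM in all of them. Spp1 was at 1261.19, 3705.78 and 4659.49 FPKM, Bglap2 at 3.76, 1.51 and 2.98 FPKM and Alpl at 1.51, 0.20 and 0.20 FPKM. Listed markers of blood cells, endothelium and adipocytes did not exceed 0.42 FPKM and those of muscle 1.05 FPKM. From a list of chondrocyte markers, Sox9 was at 24.94, 36.25 and 39.29 FPKM, but Col2a1 only at 0.18, 0.24 and 0.72 FPKM. Acan, also on that list, had no values. In these bulk samples, fewer cells that express a gene and less RNA per cell cannot be told apart. Of 10 listed proliferation genes, 9 were higher in Ti than in CTL (8 as TPM) and 10 were higher in Ti+Se-Met, with summed levels of 227.17, 392.14 and 450.49 FPKM. Their part in the values below was not tested.

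Heat shock elements were searched in the promoters of the members, because HSF1 acts through them. Promoter sequences from 250 bases before to 50 bases after a transcript start were taken from RefSeq on GRCm38.p6, which is not the build named in the labels (mm9), and were found for 59 of the 73 genes. An element was counted where 3 units adjoined in alternating orientation, as GAANNTTCNNGAA or TTCNNGAANNTTC. These patterns are each other's reverse complement, so that a search for both reads both strands, and matches may overlap. Such an element was present in 0.603% of the 32851 promoters of the table and in 6 of 78 member promoters (7.69%), which belonged to Hspd1, Hspe1, Hsph1 and Dnajb6. The promoters of Hsph1 overlap and hold the same element, as do those of Dnajb6. By gene, 4 of 59 members (6.78%) had an element, against 0.662% of all genes with a promoter. Hspd1 and Hspe1 are neighbours on chromosome 1 and are transcribed away from each other, and the same 18 bases lay 89 to 72 bases before the start of Hspe1 and 144 to 127 bases before a start of Hspd1. In Hsph1 the element lay just inside the transcript, from 15 bases after a start, and in Dnajb6 it lay 46 to 34 bases before a start. The stretches are shown 5′ to 3′ on the strand of the first gene named, with the elements in capitals, because these 4 genes can be read against the stress-inducible genes below.
Hspe1 and Hspd1, chr1:55088029-55088106, plus strand: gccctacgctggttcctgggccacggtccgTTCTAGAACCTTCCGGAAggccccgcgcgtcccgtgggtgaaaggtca
Hsph1, chr5:149636280-149636308, minus strand: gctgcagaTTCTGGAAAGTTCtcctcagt
Dnajb6, chr5:29735844-29735872, plus strand: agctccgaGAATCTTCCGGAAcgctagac
The capitals of Hspe1 and Hspd1 hold 2 overlapping matches. A match is a description of the letters and not a measured binding site. Only complete matches within the stretch searched were counted, so a promoter without one may still hold an element of another form or farther away. Hspa1a, Hspa1b, Dnajb1 and Hspb1, all listed as HSF1-inducible, had no match. Of the 14 genes listed as HSF1-inducible, 11 had a promoter in the table and 3 of these held a 3-unit element.

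In the Ti library most chaperone transcripts were moderately higher than in CTL. Ratios are differences of log2(FPKM + 1), which understate the change of low genes. Relative to CTL, the Ti library had 45 of the 61 members higher and 16 lower, where 55.3% of all genes were higher and 44.5% lower, and the median log2 ratio was 0.33 against 0.08 for all genes. At 1.5-fold or more, 13 members (21.3%) were higher and 4 (6.56%) lower, against 15.5% and 11.3% of all genes. None of the 61 members differed by 2-fold or more, against 7.26% of all genes. The extremes were Hspa4l at 0.94 and Dnajb4 at -0.93. Of the 4 that were lower by 1.5-fold, Hspa1l and Hspb2 had passed the filter through the CTL library alone. Over all 73 members the median was 0.23. The direction depended in part on the scaling between libraries. When every library was brought to an equal sum of values (TPM), every log2 ratio of Ti against CTL moved by -0.23 before the 1 is added, and the median became 0.12 for the members and -0.13 for all genes. The split was then 37 higher and 24 lower, against 40.3% and 59.7% of all genes, and at 1.5-fold 3 higher and 9 lower, against 7.51% and 19.6%. With upper-quartile scaling it was 40 and 21, against 46.5% and 53.5% of all genes, and at 1.5-fold 6 and 8, against 10% and 15.8%. In this comparison, 37 members were higher and 16 lower under all 4 scalings, and the direction of 8 differed between scalings.

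Ti+Se-Met had 43 members higher and 18 lower than CTL, where 51% of all genes were higher and 48.8% lower, and the median log2 ratio was 0.24 against 0.01. At 1.5-fold, 5 members were higher and 2 lower, against 10.4% and 11.8% of all genes. The 2 were Dnajb4 and Hspb2, and Hspb2 had passed the filter through the CTL library alone. Hspa4l was the single member past 2-fold, against 5.96% of all genes. As TPM the split was 35 higher and 26 lower, against 35.7% and 64.2% of all genes. Between the Ti-treated libraries, 40 members were lower and 21 higher in Ti+Se-Met, where 61.1% of all genes were lower and 38.5% higher. The median was -0.09 against -0.06, and 0 members were past 1.5-fold or 2-fold, against 2.14% and 0.224% of all genes. With median-of-ratios scaling this split was 34 lower and 27 higher, against 50.4% and 49.6% of all genes. The 3 comparisons share libraries and are therefore not independent of each other.

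**Figure D1:**
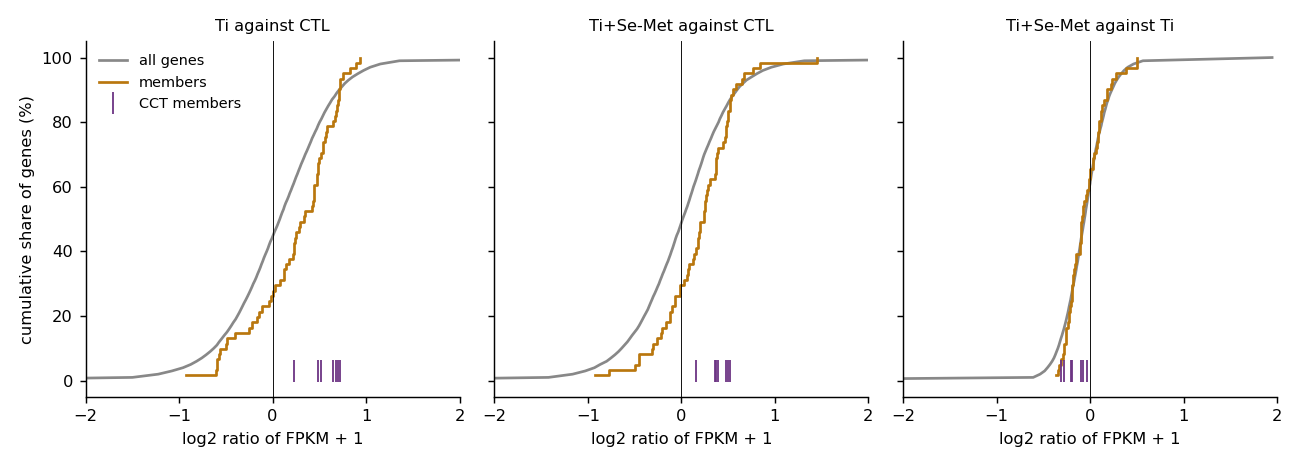
Cumulative share of genes (vertical axis, %) by log2 ratio of FPKM + 1 (horizontal axis) for the 61 members that passed the filter and for all 11137 genes, with the 7 CCT members as ticks. The curve of the members lies to the right of that of all genes in both comparisons with CTL, with medians of 0.33 and 0.24, and runs close to it in Ti+Se-Met against Ti.

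The classes differed in how they stood to CTL. Class levels are given as shares of the summed FPKM of all genes, and comparing these between libraries amounts to the TPM scaling. The 73 members together took 1.02% (CTL), 1.20% (Ti) and 1.17% (Ti+Se-Met). The HSP70 class took 0.227%, 0.307% and 0.275%, and the CCT class 0.234%, 0.298% and 0.272%. The HSP70 sum is carried by Hspa8. Of the 8 HSP70 genes that passed the filter 3 lay above CTL in Ti and 5 below it, against 55.3% and 44.5% of all genes. Among the 5, Hspa1l had passed the filter through the CTL library alone, which fixed its direction. The median log2 ratio of the 8 genes was -0.24. The mitochondrial chaperonin took 0.0831%, 0.108% and 0.111%. The DNAJ class was nearly level in share, at 0.186%, 0.186% and 0.183%. Its sum had a log2 ratio of Ti against CTL of 0.232 as deposited and 0.001 as TPM. The HSP90 class was highest in the Ti+Se-Met library, at 0.261% against 0.228% in CTL and 0.233% in Ti. For its sum, Ti against CTL was 0.264 as deposited and 0.034 as TPM. The summed share of the 5 endoplasmic reticulum chaperones outside the rule went the other way, from 0.243% in CTL to 0.127% in Ti and 0.165% in Ti+Se-Met. Of the 5, 4 were lower in Ti than in CTL as deposited and 5 as TPM. The exception as deposited was Dnajb9, at 17.27, 19.06 and 16.94 FPKM.

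**Figure D2:**
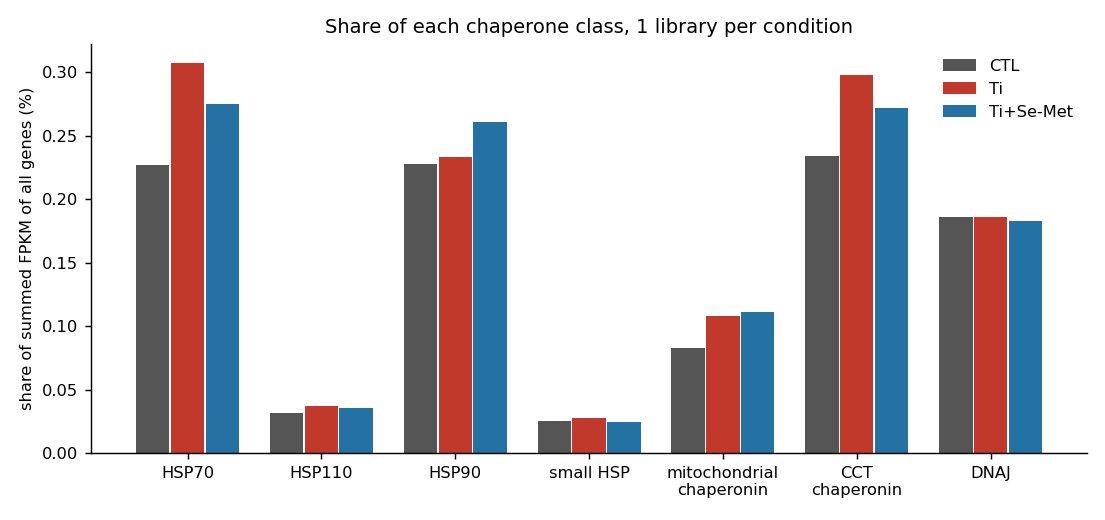
Summed FPKM of each chaperone class as a share of the summed FPKM of all genes (vertical axis, %), with 1 bar per library. The bars of the HSP70, CCT and mitochondrial chaperonin classes are taller in both Ti-treated libraries than in CTL, and those of the DNAJ class are nearly equal, between 0.183% and 0.186%. A comparison of shares between libraries amounts to the TPM scaling.

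Among the HSP70 genes, Hspa8, Hspa9 and Hspa14 were higher in Ti than in CTL, and the heat-inducible Hspa1b was not. Hspa8 encodes HSC70, the constitutive HSP70 of the cytosol, and was at 750.28 FPKM in CTL, 1226.64 FPKM in Ti and 1057.21 FPKM in Ti+Se-Met, the highest member in the Ti library. The fold of Ti over CTL was 1.63 (interval 1.61 to 1.66), and 32.1% of its windows of 100 bases also occurred in transcripts of other genes. Hspa9, the HSP70 of the mitochondrial matrix, was at 167.22, 298.05 and 262.10 FPKM, with a fold of 1.78 (interval 1.73 to 1.84) of Ti over CTL. Hspa14, a ribosome-associated HSP70, was at 25.93, 35.21 and 31.52 FPKM.
Hspa1b, a heat-inducible HSP70, was at 31.60 FPKM in CTL, 20.94 FPKM in Ti and 30.01 FPKM in Ti+Se-Met. It was lowest in the Ti library, with a fold of 0.663 (interval 0.605 to 0.725) against CTL, and the interval in Ti+Se-Met against CTL, 0.868 to 1.04, included equal levels. Its neighbour Hspa1a, a near-identical copy, was listed at 0.04, 0.16 and 0.14 FPKM, and 49.9% of the 100-base windows of the Hspa1b transcript also occurred in transcripts of other genes, Hspa1a first among them. Reads could therefore be split between the copies, and their sum was 31.64, 21.10 and 30.15 FPKM. The ratio of Hspa8 to Hspa1b within a library, which scaling does not change, was 23.7 (CTL), 58.6 (Ti) and 35.2 (Ti+Se-Met).
The remaining HSP70 genes were lower in Ti than in CTL. Hspa13, a form of the endoplasmic reticulum, was at 22.88, 19.44 and 18.35 FPKM, and Hspa12b, a distant relative, at 11.80, 9.77 and 10.46 FPKM. Hspa2 and Hspa1l, which are best known from testis, were at 5.41, 3.34 and 3.70 FPKM and at 1.69, 0.77 and 0.91 FPKM. The last of these rested on an estimated 55, 26 and 22 fragments, and 70.8% of its windows were shared with other genes.

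Hspa4l had the highest fold against CTL of any member that passed the filter, in both Ti-treated libraries. It encodes an HSP110 protein that exchanges the nucleotide of HSP70, and it was at 8.28 FPKM in CTL, 16.80 FPKM in Ti and 24.26 FPKM in Ti+Se-Met. The levels of the 3 libraries were thus in steps, with the Ti+Se-Met library highest. The fold of Ti over CTL was 2.03 (interval 1.89 to 2.18), which lay just under 2-fold once 1 was added to each value, and that of Ti+Se-Met over CTL was 2.93 (interval 2.73 to 3.15). For Ti+Se-Met over Ti it was 1.44 (interval 1.36 to 1.53), the highest there among the members that passed the filter. Its relatives Hspa4 and Hsph1 had lower folds. Hspa4 was at 69.85, 94.74 and 79.23 FPKM and Hsph1, whose start holds an element shown above, at 66.28, 84.59 and 78.48 FPKM, and both were highest in the Ti library. The ratio of Hspa4l to Hspa4 was 0.119 (CTL), 0.177 (Ti) and 0.306 (Ti+Se-Met). The direction of Hspa4 in Ti+Se-Met against CTL turned with TPM.
Hspbp1, another nucleotide exchange factor of HSP70, was at 14.16 FPKM in CTL, 27.10 FPKM in Ti and 20.76 FPKM in Ti+Se-Met, with a fold of 1.91 (interval 1.66 to 2.21) in Ti against CTL. Hspbap1, which is named for its binding to HSPB1, was at 2.18, 3.76 and 2.92 FPKM.

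The HSP90 genes differed from each other. Hsp90ab1, the constitutive form, was the most abundant member in CTL and in Ti+Se-Met, at 860.82 FPKM in CTL, 1051.62 FPKM in Ti and 1190.22 FPKM in Ti+Se-Met. Its fold was 1.22 (interval 1.20 to 1.24) for Ti over CTL and 1.13 (interval 1.11 to 1.15) for Ti+Se-Met over Ti. Hsp90aa1, the inducible form, was at 161.56, 176.26 and 154.41 FPKM, and its direction in Ti against CTL turned with TPM and with upper-quartile scaling. Of its windows, 47.5% were shared with other genes. The ratio of Hsp90ab1 to Hsp90aa1 was 5.33 (CTL), 5.97 (Ti) and 7.71 (Ti+Se-Met).

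Among the small HSPs, Hspb8 was the most abundant. Hspb8 works with Bag3 in the removal of misfolded proteins, and was at 72.92 FPKM in CTL, 108.48 FPKM in Ti and 95.11 FPKM in Ti+Se-Met, with a fold of 1.49 (interval 1.40 to 1.58) in Ti against CTL. Hspb6 was at 11.73, 13.90 and 11.97 FPKM, and its interval in Ti against CTL, 0.977 to 1.43, included equal levels. Hspb1, a heat-inducible small HSP that is abundant in many cell types, was at 1.85, 2.59 and 2.24 FPKM, on an estimated 20, 28 and 18 fragments, so that no difference was detectable at this depth. A share of 42.7% of its windows occurred in other genes, among them the pseudogene Hsp25-ps1, so that its low level may be affected by how such reads were counted, which was not tested.
Hspb11, which is a subunit of intraflagellar transport rather than a typical small HSP, was lower in both Ti-treated libraries, at 26.87 FPKM in CTL, 18.82 FPKM in Ti and 19.29 FPKM in Ti+Se-Met. Hspb2, a muscle form, was at 1.28, 0.51 and 0.20 FPKM, on an estimated 11, 5 and 1 fragments. Its windows were shared at 22.7%, with its neighbour Cryab, a small HSP outside the rule by its symbol, which was at 109.48, 65.70 and 77.70 FPKM. Hspb7 and Hspb9 did not exceed 0.39 FPKM.

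**Figure D3:**
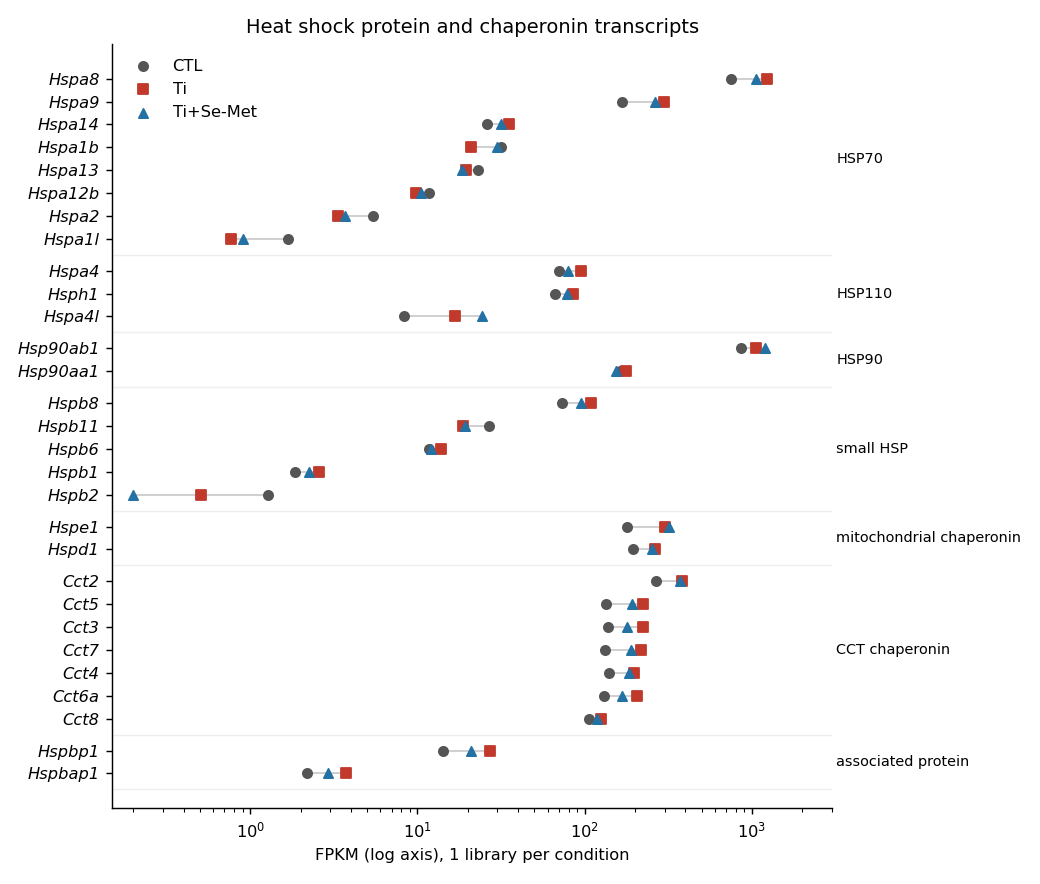
FPKM (horizontal log axis) of the members other than DNAJ genes that passed the filter, 1 point per library, grouped by class. All 7 CCT genes and both mitochondrial chaperonin genes lie higher in the Ti-treated libraries than in CTL as deposited, of which Cct8 in Ti+Se-Met turns with TPM, whereas Hspa1b is lowest in Ti and Hspa4l highest in Ti+Se-Met.

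The mitochondrial chaperonin genes, which share the promoter stretch shown above, were both higher in the Ti-treated libraries. Hspe1, the lid, was at 178.78 FPKM in CTL, 302.91 FPKM in Ti and 320.89 FPKM in Ti+Se-Met, with folds of 1.69 (interval 1.59 to 1.80) and 1.79 (interval 1.68 to 1.92) against CTL. Hspd1, the barrel, was at 193.54, 262.75 and 250.75 FPKM, with folds of 1.36 (interval 1.31 to 1.40) and 1.30 (interval 1.25 to 1.34). The intervals of the 2 genes did not overlap, and the ratio of Hspe1 to Hspd1 was 0.924 (CTL), 1.15 (Ti) and 1.28 (Ti+Se-Met). Of the Hspd1 windows, 26.9% were shared with other genes, against 0.347% of those of Hspe1.
The DNAJ genes of mitochondrial proteins described next were named after their values were seen. Dnaja3, a DNAJ protein of the matrix, was at 23.60 FPKM in CTL, 38.78 FPKM in Ti and 34.50 FPKM in Ti+Se-Met, with a Ti over CTL fold of 1.64 (interval 1.51 to 1.79). Dnajc19 and Dnajc15, which belong to the protein import motor of the inner membrane, were at 30.51, 43.27 and 46.24 FPKM and at 18.71, 26.33 and 20.56 FPKM. Dnajc15 had one of the larger differences between the Ti-treated libraries, with a fold of 0.781 (interval 0.729 to 0.836) for Ti+Se-Met over Ti. Dnajc11, which is associated with cristae organisation, was at 9.77, 16.76 and 14.11 FPKM, and Dnajc30 at 19.51, 21.36 and 23.49 FPKM. The direction against CTL differed between scalings for Dnajc30 in Ti and for Dnajc15 in Ti+Se-Met. Grpel1, the nucleotide exchange factor of mitochondrial HSP70 and no member, was at 16.16, 26.48 and 23.31 FPKM, but Trap1, the mitochondrial HSP90, was at 53.79, 44.80 and 52.61 FPKM. Of the members that passed the filter, 17 carried the mitochondrion term in the deposited annotation. Of these, 12 lay above CTL in Ti and 5 below it, against 55.3% and 44.5% of all genes. Their median log2 ratio was 0.44, against 0.26 for all 1451 genes with the term.

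All 7 CCT genes that passed the filter were higher in Ti than in CTL under all 4 scalings, but Cct8 was nearly level as TPM, at a log2 fold of 0.004. Of all genes, 55.3% were higher as deposited and 40.3% as TPM. The log2 ratios of the 7 as deposited ran from 0.23 to 0.73, with a median of 0.64 against 0.08 for all genes. At 1.5-fold, 4 of the 7 were higher as deposited, 4 with median-of-ratios scaling, 1 with upper-quartile scaling and 0 as TPM. In the same order, 15.5%, 13.6%, 10% and 7.51% of all genes were higher by that much. Cct5 was at 133.88 FPKM in CTL, 222.07 FPKM in Ti and 191.82 FPKM in Ti+Se-Met, with the highest fold of the class, 1.66 (interval 1.59 to 1.73). Cct7 was at 132.86, 215.77 and 188.31 FPKM and Cct3 at 138.33, 222.08 and 179.19 FPKM. Cct6a was at 130.80, 204.72 and 168.05 FPKM, without an interval because no transcript length was matched. All 4 of these subunits were highest in the Ti library and lowest in CTL.
Cct2 was the most abundant subunit, at 265.26, 379.21 and 371.00 FPKM, and Cct4 was at 139.48, 196.44 and 183.27 FPKM. Cct8 had the smallest difference, at 106.30, 125.11 and 118.41 FPKM, with a fold of 1.18 (interval 1.12 to 1.23) in Ti against CTL. In Ti+Se-Met against CTL the 7 genes were again higher, with a median of 0.39, except that Cct8 was lower as TPM. Of all genes, 51% were higher as deposited and 35.7% as TPM. Between Ti+Se-Met and Ti all 7 were lower in Ti+Se-Met as deposited, by log2 ratios from -0.31 to -0.03, and 6 of them under all 4 scalings, the exception being Cct2. In that comparison 61.1% of all genes were lower as deposited, and the median was -0.195 for the 7 against -0.062 for all genes.
Tcp1, the remaining subunit of the 8 in the ring, does not match the rule by its symbol and was at 156.52, 202.70 and 187.11 FPKM. The ring has each subunit once, whereas the highest and the lowest of the 8 transcripts differed by 2.50-fold (CTL), 3.03-fold (Ti) and 3.13-fold (Ti+Se-Met). Cct6b, the testis form of Cct6a, stayed at or below 0.44 FPKM.
Prefoldin hands actin and tubulin chains to CCT. Of the 10 listed partners of CCT, with prefoldin subunits and Tcp1 among them, 2 were past 1.5-fold in Ti against CTL, both higher. Of all genes, 15.5% were higher by that much. As TPM, 1 partner was, against 7.51% of all genes. Pfdn5, the most abundant prefoldin subunit, was at 151.17, 169.02 and 189.80 FPKM. Pfdn6 was at 48.48, 111.19 and 73.63 FPKM, with a fold of 2.29 (interval 2.05 to 2.56) in Ti against CTL, and Pfdn2 at 21.67, 33.47 and 32.74 FPKM. Of 11 actin and tubulin genes, the clients of CCT, 5 were past 1.5-fold in Ti and 7 in Ti+Se-Met, all of them higher than CTL, where 15.5% and 10.4% of all genes were. The 5 in Ti were Tuba1c at 46.49, 99.01 and 94.54 FPKM, Tubb3 at 6.16, 13.20 and 16.92 FPKM, Tubb6 at 31.81, 61.07 and 76.57 FPKM, Tubb4b at 78.57, 139.11 and 150.58 FPKM, and Tubb5. The other two in Ti+Se-Met were Tuba1b at 328.50, 465.30 and 495.01 FPKM and Tubb2b at 1.69, 1.69 and 3.16 FPKM. Both cytoplasmic actin genes were lower in Ti than in CTL. Actg1 was at 1661.34, 1373.54 and 2261.33 FPKM and Actb at 860.95, 725.77 and 1121.05 FPKM, whereas Tubb5 was at 263.17, 420.96 and 553.98 FPKM. The summed level of the 8 CCT subunits was 1203.43, 1768.10 and 1587.16 FPKM.

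**Figure D4:**
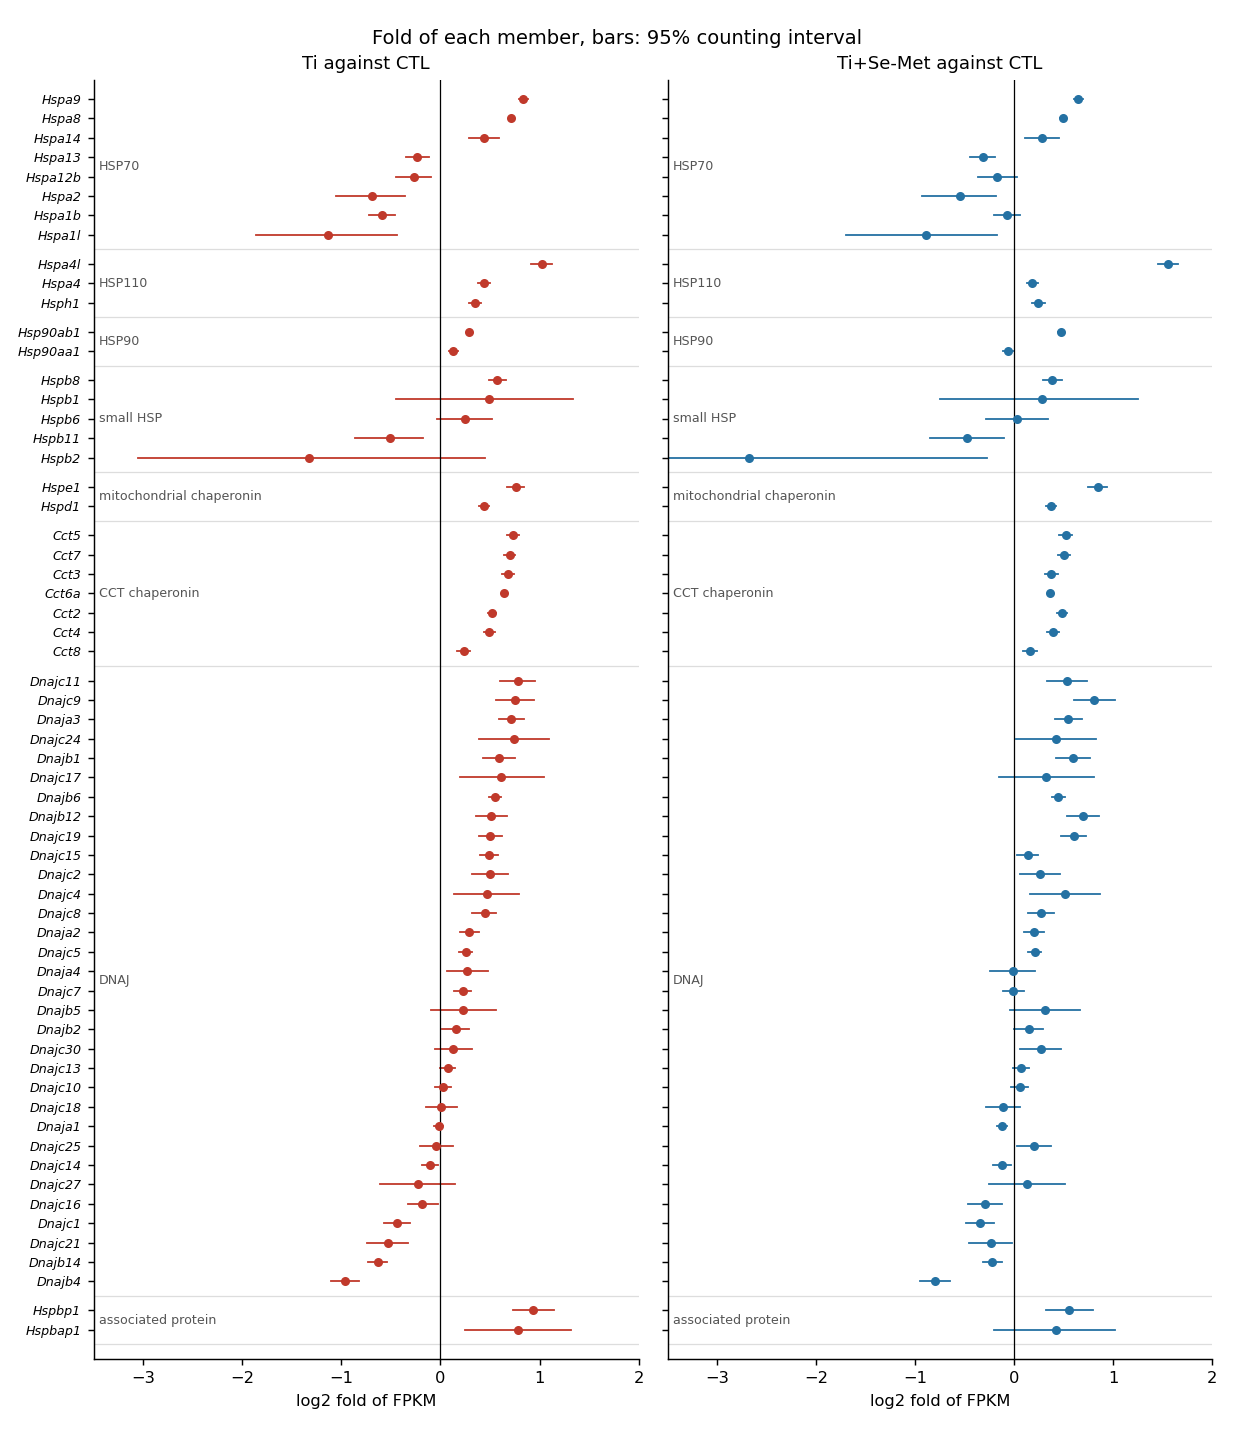
Log2 fold of FPKM (horizontal axis) against CTL for each of the 61 members that passed the filter, with 95% counting intervals as bars, in Ti (left) and in Ti+Se-Met (right). The interval of Hspb2 in Ti+Se-Met runs past the left edge and Cct6a has none. Hspa4l lies farthest to the right among the points in both panels, and Dnajb4 farthest to the left among the DNAJ genes.

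The DNAJ genes were mixed. Among the 32 that passed the filter, Ti was above CTL for 23 and below it for 9, where 55.3% and 44.5% of all genes were. Of the 23 and the 9, 16 and 9 kept that direction under all 4 scalings. The median log2 ratio of the 32 was 0.23. At 1.5-fold, 4 were higher, namely Dnajc11, Dnajc9, Dnaja3 and Dnajc24, and 2 were lower, namely Dnajb4 and Dnajb14, where 15.5% and 11.3% of all genes were. As TPM 16 were higher and 16 lower, against 40.3% and 59.7% of all genes. Of these, 0 and 4 were past 1.5-fold, against 7.51% and 19.6% of all genes. Against CTL, Ti+Se-Met had Dnajc9 and Dnajb12 higher and Dnajb4 lower by 1.5-fold as deposited, where 10.4% and 11.8% of all genes were.
The most abundant were Dnajb6, which keeps aggregation-prone proteins soluble, and Dnaja1, a main partner of cytosolic HSP70. Dnajb6, whose promoter holds an element shown above, was at 88.26, 128.91 and 120.12 FPKM, with a fold of 1.46 (interval 1.40 to 1.53) in Ti against CTL, and 36.3% of its windows were shared with other genes. Dnaja1 was at 92.46, 91.36 and 84.99 FPKM, and its Ti over CTL interval, 0.956 to 1.02, included equal levels. Dnajc7, a co-chaperone that binds both HSP70 and HSP90, was at 58.67, 68.54 and 58.19 FPKM, Dnajc8, which is found with splicing factors, at 56.16, 76.42 and 67.72 FPKM, and Dnaja2 at 43.98, 53.87 and 50.55 FPKM. The direction of Dnajc7 turned with TPM in Ti against CTL.

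Relatives within the DNAJB group differed in direction. Dnajb1, the heat-inducible HSP40, was at 12.49 FPKM in CTL, 18.85 FPKM in Ti and 18.84 FPKM in Ti+Se-Met, with a fold of 1.51 (interval 1.35 to 1.69) in Ti against CTL, which was under 1.5-fold once 1 was added. Dnajb4, its close relative, was at 36.33, 18.64 and 20.82 FPKM, with a fold of 0.513 (interval 0.465 to 0.566). The ratio of Dnajb1 to Dnajb4 was 0.344 (CTL), 1.01 (Ti) and 0.905 (Ti+Se-Met). A similar split was seen between Dnajb12 and Dnajb14, which sit in the membrane of the endoplasmic reticulum and take part in the removal of misfolded membrane proteins. Dnajb12 was at 19.46, 27.81 and 31.53 FPKM and Dnajb14 at 17.60, 11.34 and 15.09 FPKM, with folds in Ti against CTL of 1.43 (interval 1.28 to 1.59) and 0.644 (interval 0.604 to 0.688).
Dnajc9, a histone chaperone, was at 16.12, 27.07 and 28.22 FPKM, and its fold in Ti+Se-Met against CTL, 1.75 (interval 1.52 to 2.03), was the highest among the DNAJ genes that passed the filter. The proliferation genes given above were mostly higher in the same libraries, and Mki67, the exception in Ti, was at 17.33, 16.29 and 27.18 FPKM. Dnajc24, which acts in diphthamide synthesis on elongation factor 2, was at 7.22, 12.04 and 9.65 FPKM. Dnajc2, the ribosome-bound partner of Hspa14, was at 15.19, 21.45 and 18.22 FPKM and thus followed the order of Hspa14 over the libraries. Dnajc21, which acts in the maturation of the large ribosomal subunit, was lowest in Ti, at 16.69, 11.53 and 14.18 FPKM. Dnajc10, a disulfide reductase of the endoplasmic reticulum, was at 43.59, 44.48 and 45.31 FPKM, with intervals that included equal levels in all 3 comparisons. The 7 DNAJ genes that did not pass the filter, among them Dnajc6, Dnajb8 and Dnajb13, did not exceed 0.59 FPKM.

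Hspa8 and Hsp90ab1 stood higher relative to their counterparts in the endoplasmic reticulum in both Ti-treated libraries than in CTL. These pairs were chosen after their values were seen. Hspa5, the HSP70 of the endoplasmic reticulum, was at 302.17, 221.84 and 280.31 FPKM, so that the ratio of Hspa8 to Hspa5 was 2.48 (CTL), 5.53 (Ti) and 3.77 (Ti+Se-Met). Hsp90b1, its HSP90, was at 684.80, 354.03 and 473.22 FPKM, and the ratio of Hsp90ab1 to Hsp90b1 was 1.26, 2.97 and 2.52. Not every pair went this way, as Hspa1b had a fold of 0.663 in Ti against CTL and Hspa5 one of 0.734. Dnajb11, a DNAJ partner of Hspa5, was at 54.33, 49.00 and 51.64 FPKM. Serpinh1, a collagen-specific chaperone, was at 462.70, 372.65 and 432.42 FPKM, beside Col1a1 at 1333.19, 354.20 and 481.63 FPKM.

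**Figure D5:**
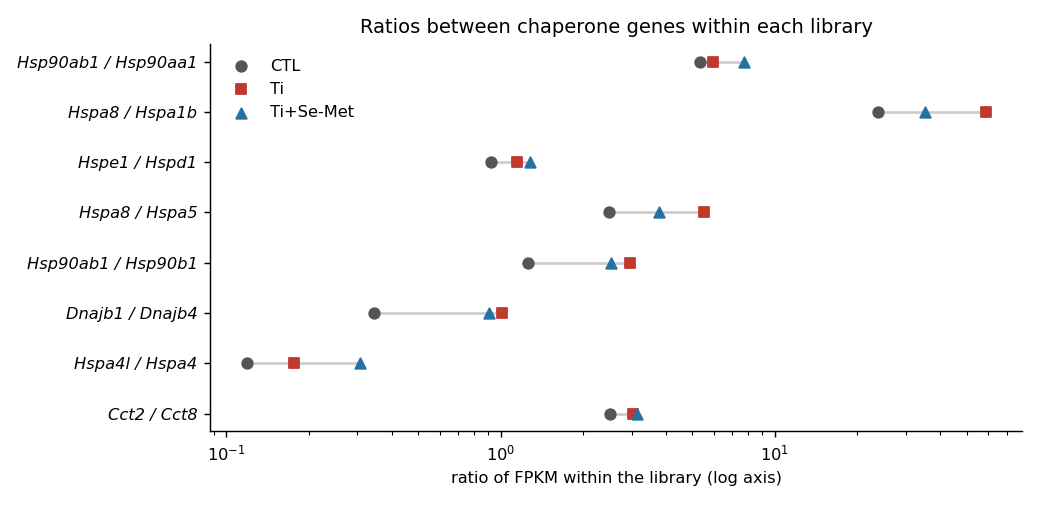
Ratio of FPKM of 2 genes within each library (horizontal log axis), 1 point per library, which does not depend on the scaling between libraries. The ratio of Hspa8 to Hspa5 was 2.48 (CTL), 5.53 (Ti) and 3.77 (Ti+Se-Met), and that of Hspa4l to Hspa4 was 0.119, 0.177 and 0.306.

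The genes listed as induced by heat shock factors were found in both directions. The list holds Hspa8 and Hsp90ab1 too, which are named above as constitutive forms. Hsf1 was at 15.48, 23.34 and 20.82 FPKM, with a fold of 1.51 (interval 1.33 to 1.71) in Ti against CTL, Hsf2 at 12.91, 13.56 and 14.91 FPKM, and Hsbp1, a negative regulator of HSF1, at 73.18, 60.39 and 64.25 FPKM. Of the 14 genes listed as HSF1-inducible, 13 passed the filter, with 10 of them above CTL in Ti and 3 below it, at a median log2 ratio of 0.35. All genes were 55.3% above and 44.5% below, at a median of 0.08. At 1.5-fold, 3 of the 13 (Hspa4l, Hspe1 and Hspa8) were higher and 1 (Dnajb4) was lower as deposited, beside 15.5% and 11.3% of all genes. These counts were 1 and 2 as TPM and 2 and 2 with upper-quartile scaling. The shares of all genes were 7.51% and 19.6% as TPM and 10% and 15.8% with upper-quartile scaling. The 4 genes with a 3-unit element, of which Hspd1 and Hspe1 share a stretch, had log2 ratios from 0.35 to 0.76 in Ti against CTL. Their median was 0.49. The 45 members that passed the filter and had a promoter without such a match ranged from -0.93 to 0.94, with a median of 0.29. Ranges depend on the number of genes, and the difference between these groups was not tested. The listed co-chaperones of HSP70 and HSP90 numbered 28, of which 23 were above CTL in Ti and 5 below it, at a median of 0.32. As TPM, 18 were above and 10 below, where 40.3% and 59.7% of all genes were. The most abundant were St13, at 138.47, 172.24 and 169.56 FPKM, Bag1, at 137.95, 166.66 and 167.13 FPKM, and Stip1, which links HSP70 to HSP90, at 123.69, 169.75 and 172.71 FPKM. At 1.5-fold, 5 of the 28 were higher, Grpel1 among them, and 1 lower as deposited, beside 15.5% and 11.3% of all genes. These counts were 0 and 1 as TPM and 1 and 1 with upper-quartile scaling, beside the shares of all genes given above for these scalings. Cdc37, which brings kinases to HSP90, was at 85.87, 148.05 and 149.90 FPKM, and Fkbp4, which acts on steroid receptors, at 85.79, 136.88 and 114.04 FPKM. Sgta was at 75.25, 116.61 and 96.84 FPKM, and Unc45a, a myosin chaperone, at 11.60, 19.12 and 14.62 FPKM. The gene that was lower by 1.5-fold was Cdc37l1, at 28.04, 17.65 and 15.70 FPKM. Bag3, a strongly HSF1-induced partner of Hspb8, was chosen after its values were seen, and was at 55.93, 58.10 and 65.68 FPKM, with an interval of 0.976 to 1.11 in Ti against CTL.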

How the data were processed

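The data were 3 RNA-seq libraries of MC3T3-E1 cells, 1 for each condition. The authors removed adapter-containing and low-quality reads, aligned the others with HISAT2 and used HTSeq for counting. The deposited values are FPKM with 2 decimals. The submitters' processing notes also name StringTie, SAMtools and mm9. How FPKM was made, and whether strand was used, is not given in the sources used here, so reads of overlapping genes may not be separated.

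Differences of log2(FPKM + 1) were taken (scipy 1.17.1, pandas 2.3.3, numpy 2.4.6, Python 3.11.15) over genes with at least 1 FPKM in at least 1 library, without a test. Genes past 2-fold and 1.5-fold were counted. FPKM values carry no depth, and depth was instead read from the size of 1 fragment's step in 952 single-transcript genes of 400 to 1500 bases (lengths from GENCODE M21 minus 150). Of the low values, 45.8% to 58.8% lay on a step in a library, against 12.1% to 13.2% by chance. Settings that fitted nearly as well gave 14000000 to 14750000, 12900000 to 14700000 and 9900000 to 10850000 fragments. With the lowest depth, Ti+Se-Met has the widest counting error for low genes. Fragments of a member were estimated from its longest matched transcript, which makes intervals too narrow where a shorter one is expressed. For 14 of the 73 members, 20% or more of the 100-base windows of the longest GENCODE transcript also occurred in transcripts of other genes. The steps were tested on simulated data.

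The members and lists were chosen with earlier results of these data known. The genes named are every HSP and chaperonin member with at least 1 FPKM in a library, DNAJ members past 1.5-fold or among the 5 most abundant, and genes of the chaperone, factor, partner and client lists past 1.5-fold or among the 3 most abundant of their list, but not of the marker lists. Further DNAJ members, Trap1, Bag3 and the genes compared by ratio were named after their values were seen. Alternatives changed the scaling (TPM, median of ratios, upper quartile), the pseudocount (0.1 or 5), the filter (none, or a mean of 5 FPKM) and the fold counted (1.5 or 4).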

Additional observations from a re-analysis of the deposited data

How the results depend on the processing

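No paired analysis was possible because a single library stood for each condition, and for the same reason none could be left out. The number of members past 2-fold in Ti against CTL, 0 as reported, was 3 with a pseudocount of 0.1, 1 as TPM, 1 with upper-quartile scaling and 17 at 1.5-fold. In Ti+Se-Met against CTL, 1 became 2 with a pseudocount of 0.1, 2 as TPM, 7 at 1.5-fold and 0 at 4-fold. The gene added with the pseudocount of 0.1 and as TPM was Hspb2, which passed the filter through CTL alone. The 7 were 11.5% of the members, against 22.2% of all genes, and 7.07% of all genes were past 2-fold as TPM. Between Ti+Se-Met and Ti the pseudocount of 0.1 gave 1 in place of 0. Dropping the filter leaves the reported counts of members past 2-fold as they are by construction. The median log2 ratio of the members in Ti against CTL, 0.33, was 0.23 with no filter, 0.12 as TPM and 0.21 with upper-quartile scaling, and in Ti+Se-Met against CTL, 0.24 became 0.052 as TPM. The other alternatives moved the medians by less than 0.1. Of 63 log2 ratios of class sums, 4 changed sign. As TPM, Ti+Se-Met against CTL was -0.027 for the small HSPs and -0.026 for the DNAJ genes, and the DNAJ genes in Ti+Se-Met against Ti were 0.008 (median of ratios) and 0.011 (upper quartile). Scaling moves all ratios of a comparison by 1 factor by construction, so the ratios within a library are the values it leaves alone.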
